A study of Mus musculus with 4 samples.

Results

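Interferon-induced genes are the genes that cells switch on when an interferon binds its receptor. The set described here holds 41 such genes, picked by gene symbol from the 48709 rows of the deposited table, and each symbol matched 1 row. By name and known main inducer, 32 were treated as type I-like (antiviral genes driven mainly by interferon alpha and beta) and 9 as gamma-like (the Gbp and Irgm genes, Igtp and Iigp1, driven mainly by interferon gamma). This split is a working one, since most of these genes answer to both kinds of interferon. Irf1, which interferon gamma induces, is counted with the type I-like genes. All 41 had a mean of at least 10 normalized counts and so were among the 18436 genes tested.

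RNA came from the left lung lobe of untreated C57BL/6 mice at postnatal day 1. The study compared 2 mice with genotype RykSL/SL, which carry the SL allele of Ryk on both chromosomes (called mutant here), with 2 wild-type mice. Ryk is a single-pass receptor for WNT ligands, and what the SL allele does to its transcript or protein is not stated in the labels. The question is which lung transcripts differ between these genotypes at birth.

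Values are normalized read counts, scaled between libraries by the authors and rounded to whole numbers. Throughout, paired values are those of replicates 1 and 2 in this order. A fold change is the mutant mean minus that of the wild type, both of log2(value + 1), with its standard error (n = 2 lungs per genotype), which understates changes of low genes. A gene was called, and is said to have risen or fallen, at an adjusted p under 0.05 (limma, two-sided, Benjamini-Hochberg over all genes tested).

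Normalized counts of the targeted gene, Ryk, were 2757 and 2203 in mutants, beside 2528 and 2525 in wild-type lungs, so its transcript level does not mark the genotype. The library totals lay between 18658239 and 19987634 normalized counts after the authors' scaling. Mutant replicate 1 stood apart by sex-linked genes: Xist was at 24836 there and at 7 to 23 in the other 3 lungs, and the Y-linked gene Ddx3y was at 56 against 2197 to 3769. Over genes, the log2 difference had an SD of 0.31 between the wild-type lungs and 0.60 between the mutant lungs. The lung markers Sftpc, of alveolar type 2 cells, and Scgb1a1, of club cells, were abundant in all 4 lungs, at no less than 135559 and 35648. Of all genes tested, 169 fell and 271 rose, 2.39% together.

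Type I interferons bind the receptor made of Ifnar1 and Ifnar2, whose kinases Jak1 and Tyk2 phosphorylate STAT factors, Stat2 among them. A complex with Irf9 then binds the interferon-stimulated response element in target promoters. Interferon gamma binds Ifngr1 and Ifngr2 and acts through STAT factors at the gamma-activated site, and through Irf1, which it induces. Many of these genes are also transcribed at a low level without infection, in leukocytes as well as in endothelium and epithelium.

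Most of the interferon-induced genes stood lower in the mutant lungs, but few of the differences passed the test. In both mutant lungs, 31 of the 41 genes lay below both wild-type lungs, and none lay above both. Over all genes tested, 26.9% lay below in this way and 25.7% above. Only 2 members passed the test, and both fell: Ifit1, an antiviral RNA-binding protein, and Iigp1, a GTPase that attacks the vacuoles of intracellular parasites. That is 2 of 41 genes, beside 0.917% of all genes called lower. No member rose (limma), beside 1.47% of all genes called higher. None of the 41 was higher at an unadjusted p under 0.05 either, beside 1925 of the 18436 genes tested. At an unadjusted p under 0.05, 17 members were lower, beside 9.64% of all genes.

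The shift was of similar size in both kinds of member. The median log2 fold change was -0.54 for the type I-like and -0.53 for the gamma-like genes, and -0.02 over all genes tested. A fold change below 0 was found for 30 of 32 type I-like and 9 of 9 gamma-like genes, beside 51.7% of all genes. Whole-lung RNA cannot tell fewer expressing cells from less RNA per cell. The number of calls changed with the lung left out, but the fold changes of the 2 called members kept their sign and rough size. Leaving out 1 lung gave -1.29 to -1.17 for Ifit1 and -1.41 to -1.11 for Iigp1. Each such fit leaves 1 lung in a genotype, so a lost call cannot show that it rested on the lung left out. A gained call adds no support either, since each gene's own spread is then taken from the other genotype alone. With mutant replicate 1 left out (the lung with high Xist), 14 members were called lower (6.43% of all genes), including Ifit1 and Iigp1. Without mutant replicate 2, wild-type replicate 1 or wild-type replicate 2, limma called 0 of all genes, members included, while 17, 3 and 6 members were lower at an unadjusted p under 0.05, beside 13.5%, 2.09% and 2.61% of all genes. The count stayed at 2 with equal library totals, quantile normalization, a pseudocount of 5 or 0.5 and a minimum mean of 50 (which leaves 36 members), where 1.02%, 0.917%, 0.955%, 0.911% and 1.09% of all genes were called lower. It was 0 without the filter on low values (0.0% of all genes) and without the mean-variance trend (0.141%), with 16 and 17 members lower at an unadjusted p under 0.05, beside 7.12% and 9.38% of all genes. With the replicate number as a block it was 5 (1.78%).

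**Figure D1:**
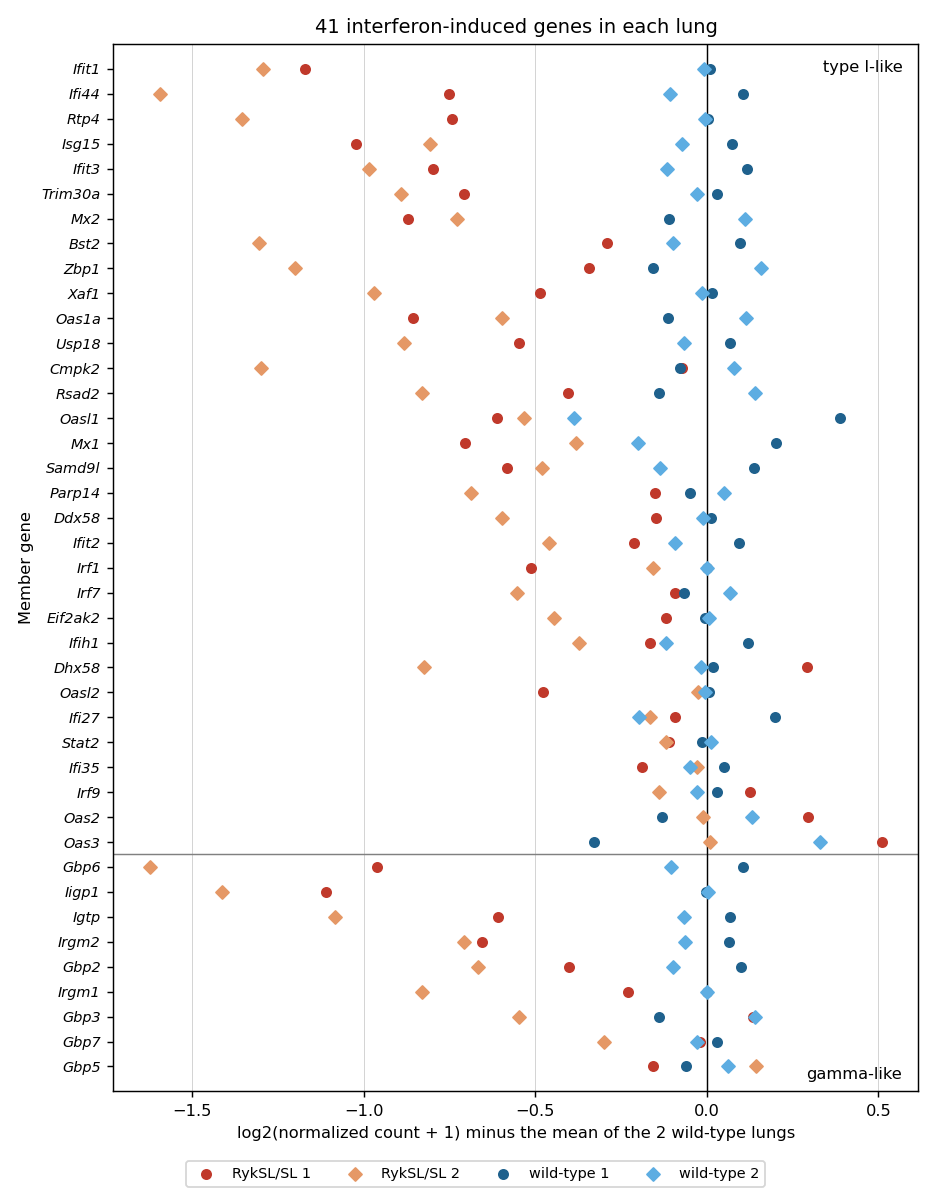
Each row is 1 of the 41 member genes, and each point 1 lung, plotted as log2(normalized count + 1) minus the mean of the 2 wild-type lungs (type I-like genes above the line, gamma-like below). The mutant points lie left of both wild-type points in 31 rows, with Gbp6, Iigp1, Ifit1, Ifi44 and Rtp4 furthest left; in the Cmpk2, Gbp3 and Gbp7 rows the point of mutant replicate 1 is nearly covered by that of a wild-type lung.

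**Figure D2:**
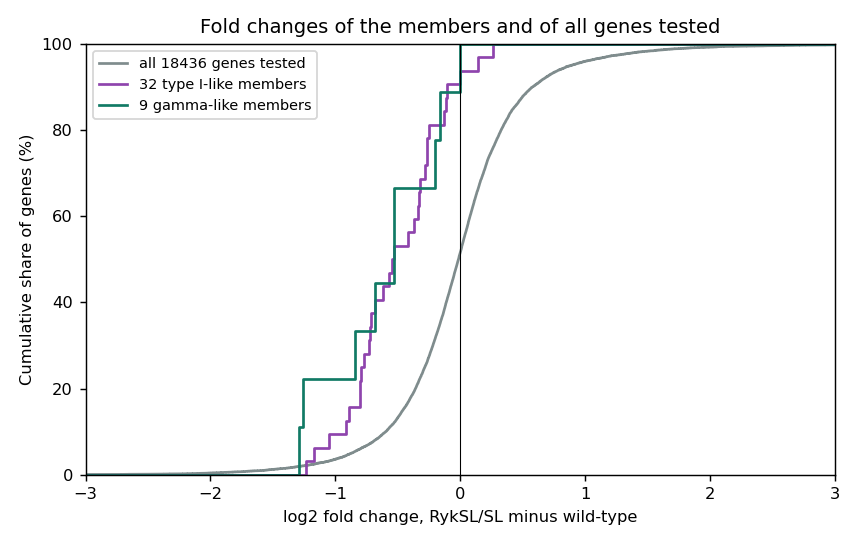
Cumulative share of genes (y axis, percent) with a log2 fold change up to the value on the x axis, for all 18436 genes tested, the 32 type I-like and the 9 gamma-like members. The curves of both member groups run together, with medians of -0.54 and -0.53, left of the curve for all genes, which crosses the middle near 0.

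The 4 members that are transcription factors of the signal were little shifted, with a median of -0.22. This does not hold for such factors in general, as the 7 STAT and IRF genes outside the set had a median of -0.57. Stat2, part of the complex with Irf9, had 609 and 606 against 652 and 664 (-0.11 ± 0.14, adjusted p = 0.683). Both mutant lungs lay below both wild-type lungs, but by little. Irf9, the DNA-binding part of the same complex, had a fold change of -0.01, and its lungs overlapped. Irf7, which amplifies the response by inducing interferon alpha genes, had 255 and 185 against 260 and 285, or -0.32 ± 0.21 (adjusted p = 0.440). Nearly all of that difference came from mutant replicate 2. Irf1 had 478 and 612 against 682 and 683 (-0.33 ± 0.17, adjusted p = 0.333), and here it was mutant replicate 1 that stood lower. The promoter window of Irf1 holds 1 gamma-activated site, shown because Irf1 links interferon gamma to the other factors; capitals mark the site, which starts 90 bases before the RefSeq start (GRCm38.p6, chr11:53769904-53769952, plus strand).
Irf1: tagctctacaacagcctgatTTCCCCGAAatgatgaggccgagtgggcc

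Sensors of viral RNA also stood slightly lower. Ifih1 and Ddx58, which detect long and short double-stranded RNA in the cytoplasm, had fold changes of -0.27 and -0.37. Eif2ak2, the kinase that halts translation on viral RNA, stood at -0.28, and Zbp1, a sensor of left-handed nucleic acid, at -0.77 on wild-type values of only 32 and 40. In all 4 genes both mutant lungs were below both wild-type lungs, beside 26.9% of all genes. None of the 4 passed the test (adjusted p from 0.329 to 0.421). Dhx58, a regulator of the other sensors, went both ways: mutant replicate 1 lay above the wild type and mutant replicate 2 below it.

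Of the Ifit family, antiviral proteins that bind viral RNA, 1 of 3 genes fell. Normalized counts of Ifit1 (ENSMUSG00000034459, chromosome 19) were 99 and 91 in mutant lungs, beside 226 and 223 in wild-type lungs. The lungs of each genotype were close together and the groups did not overlap. Ifit1 fell by 1.23 ± 0.18 on the log2 scale, to 42.3% of the wild-type mean (adjusted p = 0.0341). Leaving out mutant replicate 2 gave an adjusted p of 0.0966, and wild-type replicates 1 and 2 gave 0.889 and 0.768. Ifit3, its binding partner, had 155 and 136 against 293 and 249 (-0.89 ± 0.19, adjusted p = 0.0784). Ifit2, the third member of this family, stood at -0.34. The Ifit genes lie in 1 cluster on chromosome 19. All 3 had both mutant lungs below both wild-type lungs, beside 26.9% of all genes.

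Isg15, a ubiquitin-like protein that is attached to other proteins, had 165 and 192 against 354 and 320. That is 53.0% of the wild-type mean, or -0.92 ± 0.18, and did not pass (adjusted p = 0.0629). Usp18, the protease that removes Isg15 and dampens the type I receptor, had 201 and 159 against 308 and 281 (-0.72 ± 0.19, adjusted p = 0.129). Both genes of this pair were lower in each mutant lung than in either wild-type lung. The response elements of Ifit1, Ifit3 and Isg15 are printed as examples of type I-like genes with non-overlapping lungs and more than 1 match each. Oas1a and Bst2 also meet this description but are not printed. Capitals mark the element, searched as 2 copies of GAAA with any 2 bases between them, or of TTTC where it lies on the other strand. Overlapping matches appear as 1 longer run. The stretches are from GRCm38.p6, in the direction of the gene, and their first matched base lies 104, 156 and 78 bases before the RefSeq start (Ifit1, chr19:34640765-34640833, plus strand; Ifit3, chr19:34583353-34583436, plus strand; Isg15, chr4:156200855-156200916, minus strand).
Ifit1: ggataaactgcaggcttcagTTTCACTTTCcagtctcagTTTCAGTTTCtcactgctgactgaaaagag
Ifit3: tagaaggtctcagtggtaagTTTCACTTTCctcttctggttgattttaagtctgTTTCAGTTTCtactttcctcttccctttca
Isg15: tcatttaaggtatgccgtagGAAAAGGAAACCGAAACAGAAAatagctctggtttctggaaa

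The oligoadenylate synthetases, which make the messenger that activates an antiviral ribonuclease, did not move together. Oas1a had 45 and 54 against 76 and 89 (-0.73 ± 0.25, adjusted p = 0.192), with both mutant lungs below. Its window holds 2 overlapping response elements, the second ending 5 bases before the start. Oas2 and Oas3 were the only members with a fold change above 0, at 0.14 and 0.26, and their lungs overlapped; Oas2 turned to -0.01 without mutant replicate 1, and Oas3 to -0.07 without wild-type replicate 1. The synthetase-like genes Oasl1 and Oasl2 stood at -0.57 and -0.25. Of the GTPases that block viral ribonucleoproteins, Mx2 had 38 and 42 against 65 and 76 (-0.80 ± 0.25, adjusted p = 0.168), and Mx1 stood at -0.54. Mx1 is known to be defective in C57BL/6 mice, and the deposited table lists Mx2 as a polymorphic pseudogene.

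Among the remaining antiviral effectors, 3 were at 45.9% to 57.4% of the wild-type mean without passing. Rtp4, a transmembrane protein that restricts flaviviruses, had 196 and 128 against 330 and 328 (-1.05 ± 0.24, 49.2%, adjusted p = 0.0916). Ifi44 had 148 and 82 against 269 and 232 (-1.17 ± 0.31, 45.9%, adjusted p = 0.120). Trim30a, which restrains inflammatory signalling, had 210 and 185 against 351 and 337 (-0.80 ± 0.17, 57.4%, adjusted p = 0.0766). In all 3 both mutant lungs lay below both wild-type lungs, beside 26.9% of all genes. Leaving out 1 lung gave -1.36 to -0.74 for Rtp4, -1.60 to -0.75 for Ifi44 and -0.89 to -0.71 for Trim30a. Bst2, which tethers budding virus to the cell surface, had 583 and 288 against 764 and 667. Its mutant lungs differed from each other by more than mutant replicate 1 did from the wild type, and the fold change of -0.80 ± 0.33 did not pass (adjusted p = 0.249).

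The other type I-like genes are best read as a group. The 19 whose values are not given lung by lung ranged from 15 to 1129 normalized counts and from -0.77 to 0.26 in log2 fold change, and the smallest adjusted p among them was 0.142, that of Xaf1, a promoter of cell death (-0.73). In 12 of the 19 both mutant lungs were below both wild-type lungs, beside 26.9% of all genes tested. Rsad2, the antiviral enzyme viperin, stood at -0.62, and its neighbour on chromosome 12, the nucleotide kinase Cmpk2, at -0.69. The Cmpk2 difference came from mutant replicate 2 alone, at 129 against 303 in mutant replicate 1. Samd9l, which blocks viral translation, stood at -0.53 and Parp14, an ADP-ribosyltransferase, at -0.42. Ifi35 and Ifi27 stood at -0.11 and -0.13, with overlapping lungs.

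**Figure D3:**
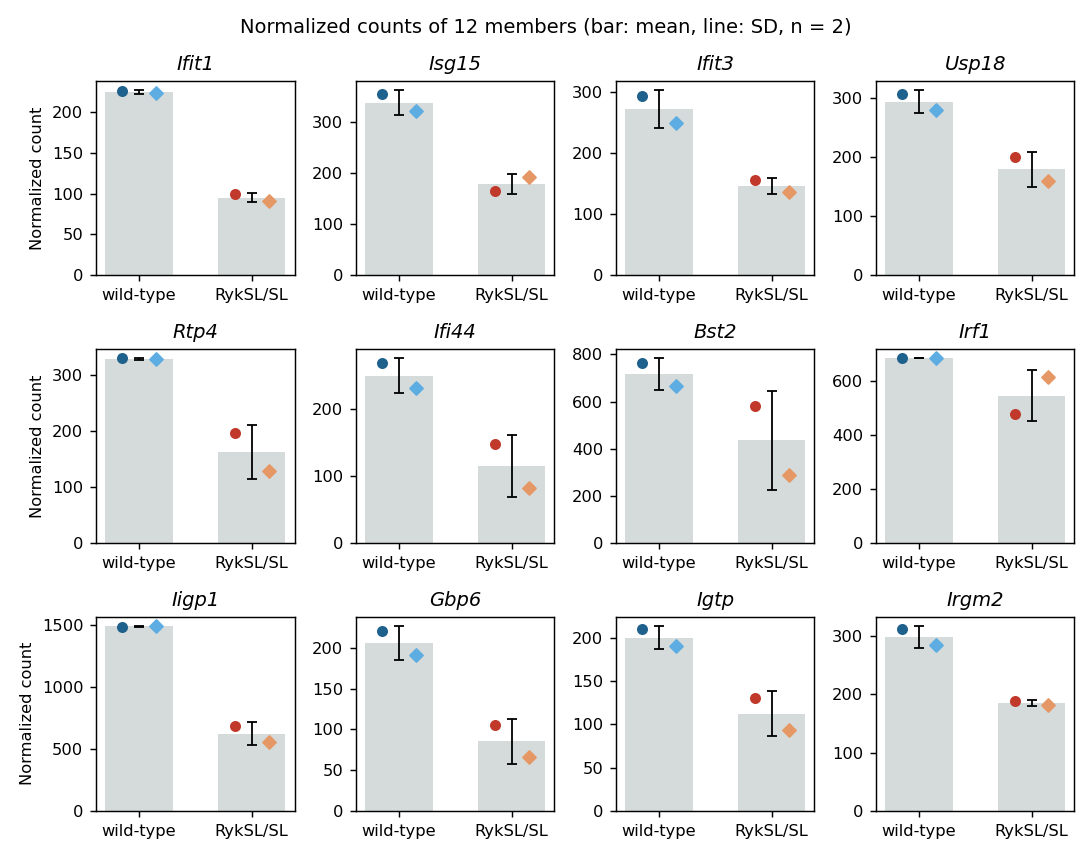
Normalized counts (y axis, from 0) of 12 members in the wild-type and mutant lungs; points are lungs (circle replicate 1, diamond replicate 2), bars means and lines the SD (n = 2). Ifit1 and Iigp1 show tight groups far apart, while the mutant lungs of Bst2 and Irf1 are spread, in opposite order.

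Iigp1 had the smallest adjusted p of the gamma-like genes. Its normalized counts (ENSMUSG00000054072) were 690 and 559 in mutant lungs, beside 1487 and 1494 in wild-type lungs. The wild-type lungs were nearly equal and both mutant lungs far below them. Iigp1 fell by 1.26 ± 0.16 on the log2 scale, to 41.9% of the wild-type mean (adjusted p = 0.0236). Without mutant replicate 2 the adjusted p was 0.0966, and without wild-type replicates 1 and 2 it was 0.860 and 0.768; without mutant replicate 1 it was 0.0407. The other immunity-related GTPases stood lower as well. Igtp, also called Irgm3, had 131 and 94 against 210 and 191 (-0.85 ± 0.23, adjusted p = 0.130). Irgm2 had 189 and 182 against 312 and 285 (-0.68 ± 0.17, adjusted p = 0.105). Irgm1, which protects host membranes from its relatives and takes part in autophagy, had 437 and 288 against 513 and 513 (-0.53 ± 0.22, adjusted p = 0.260). In all 4 genes both mutant lungs lay below both wild-type lungs, beside 26.9% of all genes, and mutant replicate 2 was the lower.

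Igtp and Irgm2 overlap on chromosome 11, and their promoters are printed because they are near copies. Each has 1 response element, in capitals, and 48 of the 50 bases shown are identical. The first matched base lies 34 bases before the start of Igtp and 64 before that of Irgm2. In both, a gamma-activated site (TTCNNNGAA) ends just before the element without sharing a base with it. Gbp2, a guanylate-binding gene with the element on the other strand, is set beside them (GRCm38.p6, plus strand; Igtp, chr11:58199502-58199551; Irgm2, chr11:58214893-58214942; Gbp2, chr3:142620584-142620633).
Igtp: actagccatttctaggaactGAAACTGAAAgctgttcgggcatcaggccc
Irgm2: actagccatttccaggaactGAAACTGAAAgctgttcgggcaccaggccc
Gbp2: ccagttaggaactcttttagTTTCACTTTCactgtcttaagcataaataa

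The guanylate-binding proteins, large GTPases that coat and break open pathogen vacuoles, were split. Gbp6 had 105 and 66 against 221 and 191, or 41.5% of the wild-type mean (-1.29 ± 0.27, adjusted p = 0.0776). Gbp2 had 265 and 220 against 375 and 327 (-0.53 ± 0.18, adjusted p = 0.190). These 2 did not overlap between the genotypes. Gbp3, Gbp7 and Gbp5 did overlap, at -0.21, -0.16 and -0.01, although Gbp2, Gbp3, Gbp5 and Gbp7 lie in 1 cluster on chromosome 3 and Gbp6 in another on chromosome 5. The fold change of Gbp3 was 0.13 without mutant replicate 2, and that of Gbp5 was 0.14 without mutant replicate 1. The values of Gbp6 are uncertain, because 70.7% of its 50-base sequences also occur in transcripts of other genes, mainly the gene model Gm43302 and Gbp10. The same share was 57.6% for Oas1a (Oas1g and Oas1b), 51.2% for Ifit3 (Ifit3b), 12.7% for Gbp7, 11.8% for Igtp, 11.6% for Rtp4, 10.4% for Ifi35, 7.1% for Ifit1 and 1.7% for Iigp1. Irf1, Usp18, Dhx58, Eif2ak2 and Ifi35 overlap a gene on the opposite strand, and whether the counting used strand is not stated in the labels, so reads of each such pair may not be separable. Exons of Igtp and Irgm2, Irf9 and Rnf31, Gbp7 and Gm43802, Rtp4 and Gm45338, Parp14 and Gm49730, and Gbp6 and Gm43302 overlap on the same strand. Strand cannot separate reads from the shared bases of these pairs.

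The 2 mutant lungs differed in degree. Of the 41 members, 33 lay below both wild-type lungs in mutant replicate 1 and 36 in mutant replicate 2, beside 42.1% and 44.8% of all genes tested. The median difference from the wild-type mean was -0.40 and -0.67 on the log2 scale, and the median difference between the wild-type lungs was 0.03. Mutant replicate 2 had the lower value in 31 of 41 members, beside 50.8% of all genes. Isg15, Irf1, Oas1a and Oasl2 were among the 10 with the higher value there. With 1 lung of each kind, sex and individual cannot be told apart.

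Levels set per kilobase of exon show how much of each transcript the newborn lung held. In the wild type, Bst2 was highest, at 792 normalized counts per kilobase, followed by Isg15 at 446, Ifi27 at 439 and Iigp1 at 256. Oas3 was lowest at 3.32, below Gbp5 at 7.08, and Mx1, Zbp1 and Oasl1 stood near 10. The members that overlapped between genotypes therefore include both abundant genes, such as Irf9 at 175 per kilobase, and scarce ones.

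RefSeq promoter windows, from 250 bases before to 50 after the start (GRCm38.p6), were found for 30 of the 41 members. The response element, searched on both strands as above, occurred in 19 of the 30, or 63.3%, and in 3.83% of the 11722 tested genes with a window. It was present in 12 of 23 type I-like and 7 of 7 gamma-like genes. The gamma-activated site TTCNNNGAA, which reads the same on both strands, occurred in 6 of 23 and 4 of 7, and in 8.4% of the tested genes. In Bst2 the 2 motifs share 3 bases. Members with the element had a median log2 fold change of -0.53 (19 genes) and those with a window and no match -0.34 (11 genes). The 430 other tested genes with the element had a median of -0.06, with 4 called lower and 11 higher. A match describes the letters in this window only.

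**Figure D4:**
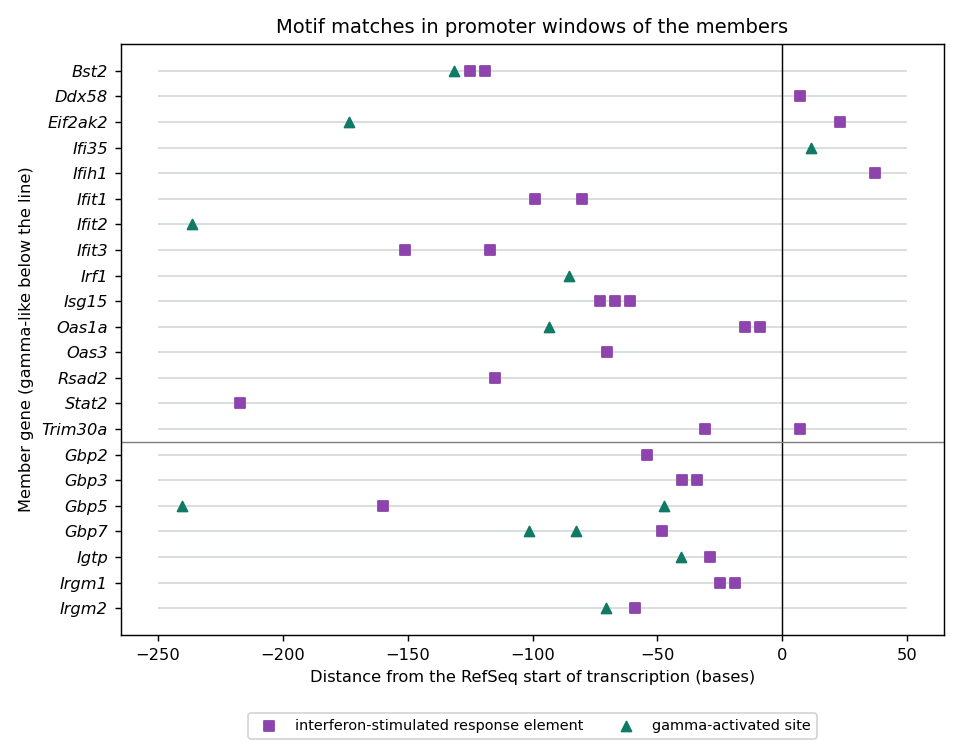
Positions of matches to the interferon-stimulated response element (squares) and the gamma-activated site (triangles) in the promoter windows of the 22 members with at least 1 match, by distance in bases from the RefSeq start of transcription at 0. Gamma-like genes are below the line; all but Gbp5 of these 7 have their response elements within 64 bases before the start.

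Genes upstream of the members gave a mixed picture. The interferons themselves were at the edge of detection: 16 of 21 ligand genes were listed at 0 in all 4 lungs, Ifnb1 was at 1 in 1 wild-type lung and 0 elsewhere, and Ifng was at 1 or 2 in each lung. None reached the mean of 10 needed for the test. Of 9 receptor and kinase genes, 1 rose and none fell. Ifngr1, the ligand-binding chain of the interferon gamma receptor, had 3688 and 2512 against 1328 and 1286, with no overlap. It rose by 1.22 ± 0.21 (adjusted p = 0.0452) but did not pass with equal library totals (0.0627) or after quantile normalization (0.0581). Nor did it pass without the filter (0.240), without the mean-variance trend (0.109), without mutant replicate 2 (0.0937) or wild-type replicate 1 or 2 (0.909 and 0.768). The other chain, Ifngr2, stood at -0.31, and the type I receptor gene Ifnar1, at 1723 and 1457 against 1667 and 1836, overlapped. Jak1 overlapped as well, at -0.07.

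Of 7 STAT and IRF genes outside the set none passed, with a median of -0.57. Irf8, a factor of myeloid and B cells, had 221 and 263 against 457 and 443 (-0.90 ± 0.17, adjusted p = 0.0591). Stat3 and Irf2, a repressor of the response, stood at 0.60 each, with both mutant lungs above. None of 14 genes for nucleic acid sensing and adaptors passed (median 0.03), and none of 10 feedback inhibitors (median 0.13). Among these, the endosomal RNA sensor Tlr8 had 106 and 110 against 52 and 52 (1.04 ± 0.22, adjusted p = 0.0772). The STAT inhibitor Socs1 stood at -1.28 (adjusted p = 0.230), on mutant values of 15 and 43. The feedback inhibitors Irf2bp2 and Samhd1 went the other way, at 0.71 and 0.43 (adjusted p = 0.0731 and 0.175), with both mutant lungs above.

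A further 53 interferon-induced genes outside the set were listed, of which 44 could be tested. This list, like the members, was chosen with earlier results of these data known, so it gives no independent support. Of these 1 fell, none rose and 35 had a fold change below 0, beside 51.7% of all genes. Both mutant lungs lay below both wild-type lungs in 26 and above in 5, beside 26.9% and 25.7% of all genes. The median was -0.49. Lgals3bp, a secreted glycoprotein, had 357 and 280 against 658 and 722 and fell by 1.12 ± 0.18 (adjusted p = 0.0388). It did not pass without mutant replicate 2, nor without wild-type replicate 1 or 2 (0.885 and 0.768). The counterpart was Ifitm1, a membrane protein that hinders virus entry, at 3690 and 2844 against 1691 and 1654 (0.95 ± 0.17, adjusted p = 0.0517). The deposited annotation gives another view: 18 members, all type I-like, carry the term for defense response to virus. The 176 other tested genes with this term had a median of -0.03, with 3 called lower and 6 higher. The other tested genes annotated to the cellular response to an interferon had medians of -0.27 for interferon-beta (12 genes, none called), -0.16 for interferon-gamma (27 genes, Dapk1 called higher) and 0.27 for interferon-alpha (6 genes, none called).

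**Figure D5:**
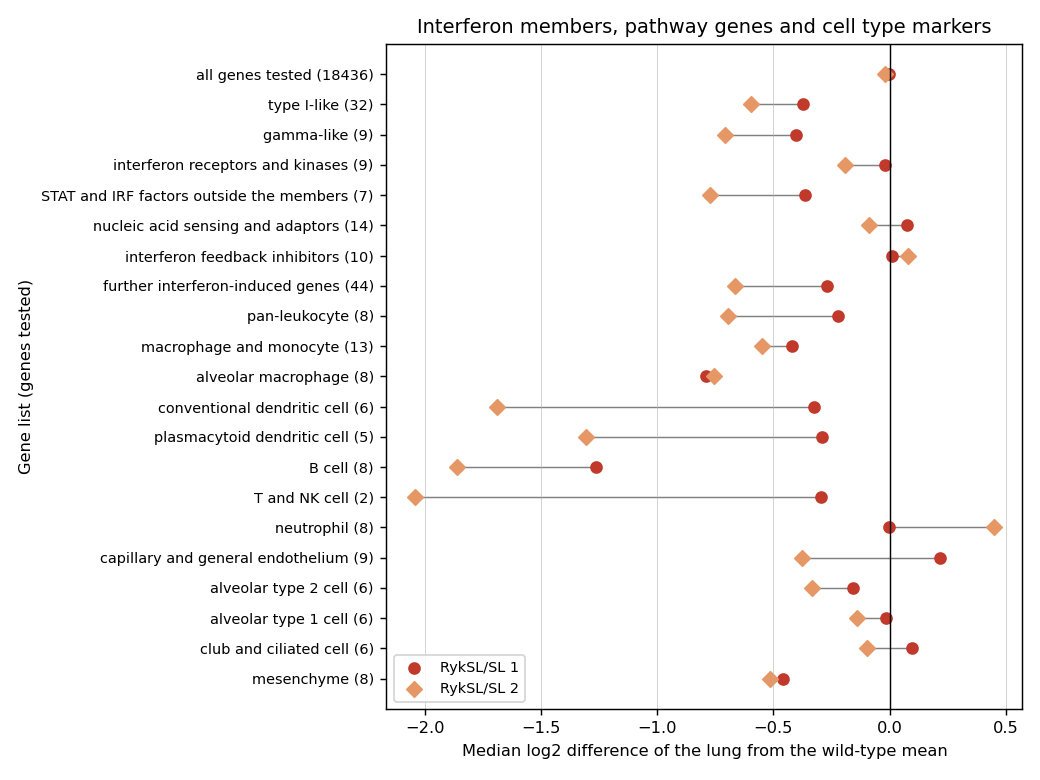
Median log2 difference of each mutant lung from the wild-type mean (x axis) for all genes, the 2 member groups, pathway lists and cell type marker lists, with the number of genes tested in brackets. Interferon-induced lists and the lists of leukocytes other than neutrophils lie left of 0 in both lungs. So do the STAT and IRF list (-0.36 and -0.77), the mesenchymal list (-0.46 and -0.52) and the alveolar type 2 list (-0.16 and -0.33). The alveolar type 1 list lies at -0.02 and -0.14. Receptors, sensors and feedback inhibitors lie between -0.19 and 0.079.

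Several lists of leukocyte markers had medians below 0, as the members did, although few of their genes passed. Of 13 macrophage and monocyte genes none passed, and the median was -0.53. In 11 of them both mutant lungs lay below both wild-type lungs, beside 26.9% of all genes, and Ly6c2 had both above. The summed level of these genes was 20011 to 21177 in the mutant and 28796 to 38435 in the wild type. Most of it was Lyz2, at 16266 and 16108 against 32500 and 23395, so the sum mainly reflects that gene. The 8 general leukocyte genes had a median of -0.49 and sums of 5153 to 6702 against 7764 to 7998, and none passed; Cytip had both mutant lungs above. Ptprc, which encodes CD45, was among them, at 563 and 408 against 602 and 580. Of 8 B cell genes tested 3 fell, namely Ms4a1, Igkc and Ighm, and the list sum was 321 to 442 against 1046 to 1051. The 8 alveolar macrophage genes had a median of -0.73, and 5 had both mutant lungs below both wild-type lungs, of which Siglecf and Ear1 fell. Chil3, also on this list, had 460 and 801 against 197 and 313 (1.29 ± 0.33, adjusted p = 0.119). The sums overlapped, at 5098 to 7864 against 7012 to 7087, most of it Fabp5. Dendritic cell markers of the conventional kind summed to 1073 to 1959 against 1993 to 2030. Of the 9 listed, 6 could be tested. Both mutant lungs lay below both wild-type lungs in 4, all of them MHC class II presentation genes (H2-Aa, H2-Ab1, H2-Eb1 and Cd74). The other tested genes, Clec9a and Zbtb46, overlapped, at -0.16 and -0.10. The lower values on this list are thus those of the MHC class II genes only. Those of the plasmacytoid kind, which include the member Bst2, summed to 3276 to 3655 against 3823 to 3998. Most of the plasmacytoid sum was Tcf4, at 3013 and 2927 against 3095 and 3028 (-0.04). The defining plasmacytoid gene Siglech was at 1 to 6 in every lung. T and NK cell markers summed to 61 to 106 against 108 to 150, and 9 of these 11 genes were too low to test. No marker on these lists was at 0 in all 4 lungs; Fcmr of B cells and Ncr1 of NK cells were listed at 0 in both mutant lungs and at 4 to 6 in the wild type. The calls of Ms4a1, Igkc, Ighm, Siglecf and Ear1 were lost without mutant replicate 2 or either wild-type lung.

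The remaining lists had medians on both sides of 0. Neutrophil markers had a median of 0.15, with Mmp8 called higher and sums of 6444 to 10014 against 6684 to 6877. General endothelial markers, none of which passed, had a median of -0.04, but their sum reached 40071 in mutant replicate 1 and only 24260 in the other mutant lung, on either side of the wild-type 31145 to 34234. Alveolar type 2, alveolar type 1, and club and ciliated cell lists had medians of -0.20, -0.03 and 0.10, with none called. Mesenchymal markers had a median of -0.54, with sums of 44168 to 44702 against 58774 to 60144, and Pdgfra called higher; Mmp8 and Pdgfra, too, were not called without mutant replicate 2 or either wild-type lung, nor was Pdgfra with equal library totals (adjusted p = 0.0564) or after quantile normalization (0.0611). Of 12 glucocorticoid-responsive genes 11 rose, with a median of 2.09 and sums of 60153 to 68304 against 15690 to 16319. The part of these cell types and of the glucocorticoid-responsive genes in the lower level of interferon-induced genes was not tested.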

How the data were processed

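The authors deposited a single matrix of normalized read counts, treated here as a score because the values are scaled and rounded, not raw counts. Per the submitters' processing notes, FastQC, STAR 2.4.0a, featureCounts 1.5.1 (Subread), DESeq2 1.14.1 and the builds mm10 and GRCm38 were used; the sources used here do not give their settings, strand included. Groups and replicate numbers came from sample titles. Each library is 1 mouse (2 per genotype), made from 3 µg of RNA. Samples carry no batch label.

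Genes with a mean of at least 10 were tested with limma 3.58.1 (R 4.3.3) on log2(value + 1), with a mean-variance trend and 4.07 prior degrees of freedom. The test was checked on counts simulated around the wild-type means, with the same spread setting for all genes and both genotypes. That check does not cover mutant lungs that differ more from each other than wild-type lungs do. Exon lengths, overlaps and shared 50-base sequences came from GENCODE M21 (GRCm38), promoters from RefSeq, using Python 3.11.15, pandas 2.3.3, numpy 2.4.6 and matplotlib 3.10.9. Depth before scaling is known only roughly, since the values are scaled; low values rest on few reads. The members and gene lists were chosen with earlier results of these data known. Values lung by lung are given for called members, the 8 type I-like and 4 gamma-like with the largest fold change, and 12 fixed genes, 19 in all. From other lists, called genes, up to 3 with the smallest p and a few fixed genes are named. Ifnb1, Ifng, Lyz2, Ly6c2, Cytip, Chil3, Fabp5, Dapk1, Sftpc, Scgb1a1, Siglech, Fcmr, Ncr1, Tcf4, Clec9a, Zbtb46 and Cd74 were added after their values were seen. A result on 1 gene is not reported here.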

Additional observations from a re-analysis of the deposited data

How the results depend on the processing

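The counts of called genes, the member medians and the fold changes of members and of some named genes were recomputed under 12 alternatives; list sums, list medians, motif and annotation results and counts of non-overlapping genes were not. The member medians stayed below 0 in each of them; leaving out 1 lung gave -0.60 to -0.37 for the type I-like and -0.71 to -0.40 for the gamma-like genes. Members called lower stayed at 2, again Ifit1 and Iigp1, with equal library totals, quantile normalization, pseudocounts of 5 and 0.5 and a minimum mean of 50. In limma with no filter on low values the count was 0 (16 at an unadjusted p under 0.05) and over all genes 0 (4876); without the mean-variance trend it was 0 (17) and 72 (3425). Leaving out 1 lung gave 0 to 14 members and 0 to 2385 genes. With the replicate number as a block the counts were 5 and 766; the numbers name no shared litter or day, and the deviations of same-numbered lungs correlated at -0.06, so the pairing is not in the design.

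A minimum mean of 50 leaves out 5 members (Gbp5, Mx1, Oas3, Oasl1 and Zbp1). Of the 41 members, 34 kept their sign in each alternative that tested them. Gbp5 was at 0.067 after quantile normalization. Leaving out 1 lung gave -0.16 to 0.14 for Gbp5, -0.013 to 0.29 for Oas2, -0.55 to 0.13 for Gbp3, -0.82 to 0.29 for Dhx58, -0.14 to 0.13 for Irf9, -0.33 to 0.070 for Ifi27, -0.071 to 0.59 for Oas3 and -0.25 to 0.12 for Jak1. With 2 lungs per genotype, a difference that missed the threshold is not shown to be absent.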
